A study of Mus musculus with 6 samples.

Results

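The genes described here encode structural proteins of central myelin. They are Mbp, Mobp, Cnp, Mag, Mog, Mal, Cldn11, Opalin and Gpm6b, chosen by name, though with earlier results of these data known. All 9 were found among the 23038 genes of the files. Their transcripts were measured in mouse primary cultured oligodendrocyte precursor cells (mOPCs), which were purified by immunopanning from mid-gestation mouse embryos. Both groups were transfected cultures, and both were collected 72 h after transfection. The siNC group (n = 3) received control siRNAs and the siQk group (n = 3) received siRNAs against Qk, with 3 different siRNAs in use, so that a siQk replicate may differ from the next in its siRNA as well as in its culture. Which library received which siRNA, the mouse strain and the number of embryos behind a culture are not given in the sources used here.

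Myelin is the stack of membrane that oligodendrocytes (OLs) wrap around axons. Its compact layers are held together by abundant small proteins, while other proteins sit in the non-compact channels, in the tight junctions between layers or on the face that meets the axon. Transcripts of myelin genes accumulate as precursors differentiate. Qk encodes the Qki proteins, RNA-binding proteins of the STAR family known to act on the splicing, stability and transport of RNAs in the OL lineage. They recognise the RNA word ACUAAY, where Y is C or U.

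Of the 9 myelin genes, 8 were called lower in siQk than in siNC, 0 were called higher, and Mog was not called. The call of Mal is given as a description, since Mal passed the filter on low counts only through its siNC libraries. Over all 12505 genes tested, 17.2% were called lower and 13.8% higher. Of these calls 55.4% were lower, and 31.4% were lower when libraries were scaled by size only, while 8 of the 9 myelin genes were called lower under both. A gene was called at P below 0.01 and FDR below 0.1 in edgeR's quasi-likelihood test, with the Benjamini-Hochberg adjustment over all genes tested. For the 9 genes, the median fold change stood at -1.35 on the log2 scale, beside 0.01 over all genes tested. With siQk replicate 1 or siQk replicate 2 left out, 4 of the 9 were called lower. Among the 8 called genes, Mal, Mobp, Mag and Mbp had log2 fold changes from -4.73 to -2.21, while Cldn11, Opalin, Cnp and Gpm6b had log2 fold changes from -1.35 to -1.10.

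2 kinds of sequence are shown because they bear on an RNA-binding protein and on genes that moved together. The first is the Qki core word in the 3' untranslated region (3'UTR), written as DNA and searched as ACTAAC or ACTAAT on the RNA strand only. For every gene the search took the longest 3'UTR that GENCODE M21 annotates (GRCm38, the assembly of mm10). Of the 9 genes, 4 held the word (Mbp, Mobp, Mal and Gpm6b) and 5 did not (Cnp, Mag, Mog, Cldn11 and Opalin). Over the 11831 tested genes with a 3'UTR of at least 50 bases, 36.1% held it. The 5 sites in Mobp, Mal and Gpm6b are given with 10 bases on each side and the word in capitals.
Mobp site 1, chr9:120176049-120176074, plus strand: gttatctggcACTAACaagaactcaa
Mal site 1, chr2:127633369-127633394, minus strand: ctaacattacACTAACcagcagctca
Gpm6b site 1, chrX:166386752-166386777, plus strand: atatgtgcatACTAACgtttcttcaa
Gpm6b site 2, chrX:166387183-166387208, plus strand: atcccaccaaACTAATgtagacgtac
Gpm6b site 3, chrX:166388219-166388244, plus strand: acattaagtgACTAATaggtactggg

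A longer 3'UTR has more room for the word, so each 3'UTR was set beside the same length of the other 3'UTRs. The Gpm6b 3'UTR has 3517 bases and 3 words, and 66.5% of the 1501 tested genes with a 3'UTR at least as long held the word within that length. The Mobp 3'UTR has 2901 bases and 1 word, against 60.3% of 2220 genes. The Mal 3'UTR has 1754 bases and 1 word, against 43.4% of 4544 genes. The Mag 3'UTR, with 535 bases, and the Cldn11 3'UTR, with 1016 bases, held none, against 15.1% and 27.4% of genes. Both kinds of gene, those with the word and those without it, thus lay among those called lower. A match describes letters and not binding.

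The second kind is the promoter, taken as the 250 bases before each start in RefSeq (GRCm38.p6). Promoters were searched on both strands for a SOX word (ACAAAG or ACAATG), as bound by Sox10, and for a Myrf word (CTGGCAC or CTGGTAC). The table held a promoter for 8 of the 9 genes, Mbp being the one without. The SOX word was found in 5 of the 8 (Cnp, Gpm6b, Mag, Mobp and Opalin), against 28.2% of 27025 genes. The Myrf word was found in 3 of the 8 (Cnp, Mag and Mog), against 6.8% of genes. The promoters of Mag, with both words, of Mobp, with 6 copies of the SOX word, and of Mal, with neither and with the lowest log2 fold change, are shown with the words in capitals.
Mag, chr7:30914864-30915113, minus strand: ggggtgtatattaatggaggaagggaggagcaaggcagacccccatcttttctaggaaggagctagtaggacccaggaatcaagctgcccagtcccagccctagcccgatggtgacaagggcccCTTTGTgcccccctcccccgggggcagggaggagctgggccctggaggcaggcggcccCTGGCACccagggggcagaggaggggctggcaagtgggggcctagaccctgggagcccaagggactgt
Mobp, chr9:120149492-120149741, plus strand: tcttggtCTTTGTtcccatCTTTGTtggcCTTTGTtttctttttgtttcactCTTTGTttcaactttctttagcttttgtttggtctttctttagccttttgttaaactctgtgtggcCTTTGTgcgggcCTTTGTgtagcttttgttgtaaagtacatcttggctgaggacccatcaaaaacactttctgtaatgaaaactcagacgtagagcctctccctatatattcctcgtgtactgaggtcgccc
Mal, chr2:127656696-127656945, minus strand: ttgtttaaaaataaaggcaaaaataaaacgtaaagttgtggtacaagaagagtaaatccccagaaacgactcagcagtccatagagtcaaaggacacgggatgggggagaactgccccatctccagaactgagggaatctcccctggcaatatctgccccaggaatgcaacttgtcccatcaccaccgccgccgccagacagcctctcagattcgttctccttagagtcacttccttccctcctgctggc

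In Mag the SOX word lies 126 bases and the Myrf word 68 bases before this start. A neighbouring RefSeq start of Mag has an overlapping window with the same copies, and another start has neither word. In Mobp all 6 copies read CTTTGT, which is the SOX word on the other strand. They lie from 243 to 120 bases before the start, in a stretch rich in T. As many copies were found in 0.00304% of 32851 promoters, a share that is the Mobp promoter itself. Mobp was shown for having the most copies among these genes, so the share is no independent background. Mal and Cldn11, with neither word, were called lower, while Mog, with a Myrf word, was not called.

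Library totals ranged from 58166490 to 141045937 tags. The Qk transcript was at 209, 206 and 163 RPKM (tags per kilobase of exon, scaled to the library total) in siNC but only at 51.3, 76.6 and 36.2 RPKM after siQk (fitted log2 change -1.98, edgeR FDR 0.00311). Rn45s, a ribosomal RNA gene, took 3.11% of the tags of siNC replicate 1, the library with the lowest total, and between 0.169% and 0.389% elsewhere. That library also held the highest siNC level of 5 of the 9 myelin genes. The share of all genes tested with their highest siNC level there was not counted, and no link to Rn45s was tested. With Rn45s left out of the counts, 8 of the 9 were called lower as before. RPKM values carry no TMM factor, which ranged from 0.899 to 0.987 in siNC and from 1.04 to 1.07 in siQk, so that fitted log2 changes lie somewhat below those taken from RPKM.

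**Figure D1:**
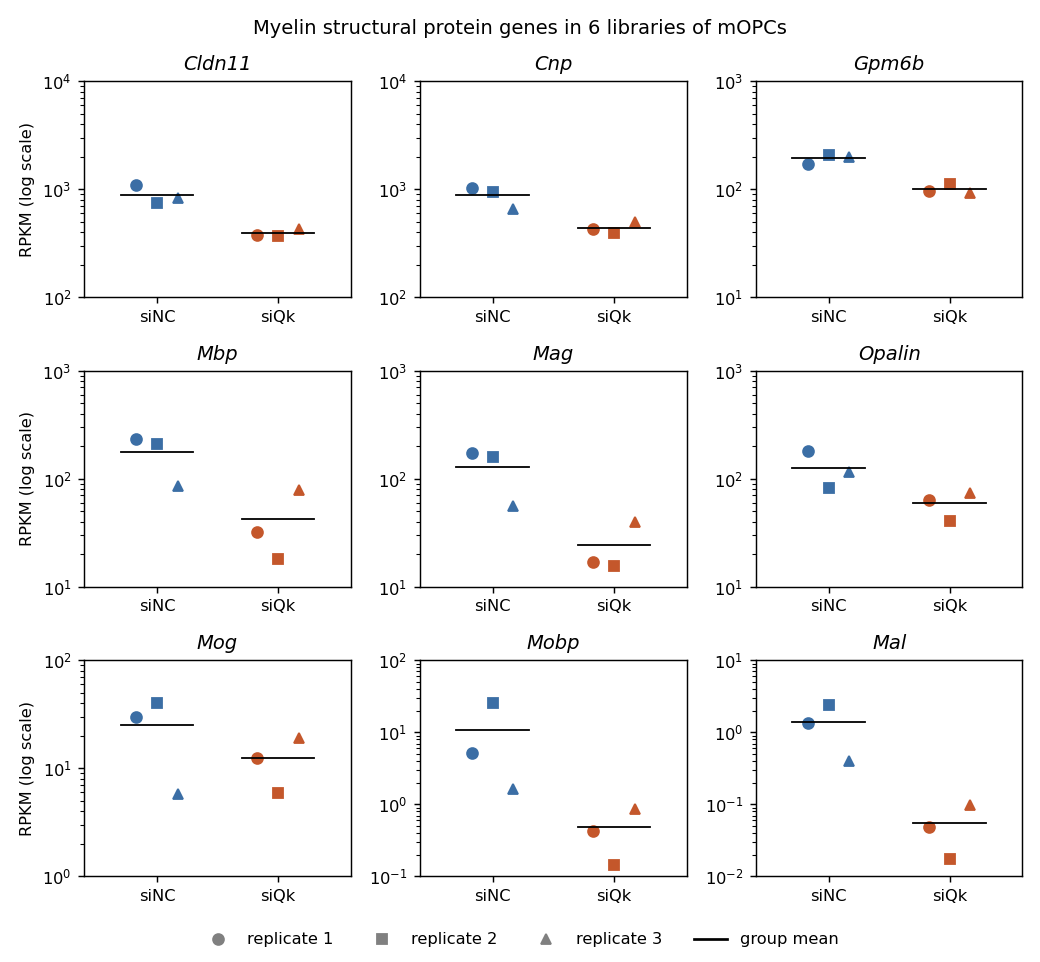
Level of each of the 9 myelin genes in RPKM (vertical axes, log scale, a range of its own in each panel) in the 3 siNC and 3 siQk libraries, with replicates by symbol and the group mean as a line. The siQk points lie below the siNC points in every panel except that of Mog, where siNC replicate 3 lies at 5.85 RPKM, below all 3 siQk libraries and close to siQk replicate 2 at 5.89 RPKM. How many of all genes tested have groups apart in this way was not counted.

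Among the proteins of compact myelin, Mbp encodes myelin basic protein, which binds the inner faces of the membrane together and whose RNA is carried to the sheath. In mm10 it spans chr18:82475146-82585637 on the plus strand, a span that also holds the Golli transcripts, and gene-level values cannot separate the transcripts. Mbp was at 233, 209 and 86.5 RPKM in the siNC libraries and at 31.9, 18.2 and 78.0 RPKM in the siQk libraries. The siQk replicate 3 library came close to the lowest siNC library, and the others stood far below. Its log2 fold change was -2.21 (standard error 0.62, 95% interval -3.68 to -0.73, edgeR FDR 0.0312). The P of 0.00953 lay close to the cutoff, and it was no longer called without siNC replicate 1 (log2 fold change -1.90), siNC replicate 2 (-2.09), siQk replicate 1 (-2.03) or siQk replicate 2 (-1.84).

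Mobp encodes myelin-associated oligodendrocyte basic protein, also a protein of the inner faces of compact myelin that appears late. It was at 5.12, 25.2 and 1.61 RPKM in siNC and at 0.431, 0.146 and 0.859 RPKM in siQk. The groups did not overlap, but siNC replicate 2 stood 15.6 times above siNC replicate 3, the widest range within a group among the 9 genes. The log2 fold change was -4.59 (standard error 1.14, 95% interval -7.30 to -1.88, edgeR FDR 0.0212). Without siNC replicate 2 it was -2.98 and no longer called, and the call was also lost without siQk replicate 1 (-4.51), 2 (-4.18) or 3 (-5.31).

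Cnp encodes 2',3'-cyclic nucleotide 3'-phosphodiesterase, which keeps the cytoplasmic channels of non-compact myelin open. It was among the 2 most abundant of the 9 transcripts, at 1031, 934 and 660.2 RPKM in siNC and at 423, 394 and 501 RPKM in siQk. All 3 siQk libraries lay below the lowest siNC library. The fit gave a log2 fold change of -1.15 (standard error 0.21, 95% interval -1.64 to -0.66, edgeR FDR 0.00713). In GENCODE M21, exons of Cnp (chr11:100574904-100591729, plus strand) share 616 bases with Dnajc7 on the opposite strand, and the library kit does not mark strand. Dnajc7 was at 147 to 192 RPKM in siNC and at 185 to 201 RPKM in siQk (log2 fold change 0.10, edgeR FDR 0.469).

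Cldn11 (chr3:31149920-31164324, plus strand) encodes the claudin of the tight junctions between myelin layers. It was at 1101, 737 and 834 RPKM in siNC and at 377, 366 and 424 RPKM in siQk, so that 43.7% of the siNC mean was left. Its siQk libraries were close together, with a coefficient of variation of 7.96%. The log2 fold change was -1.35 (standard error 0.18, 95% interval -1.79 to -0.92, edgeR FDR 0.00295).

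Mal encodes a small membrane protein of cholesterol-rich domains, known for sorting proteins towards myelin and apical membranes. It was the least abundant of the 9, at 1.34, 2.43 and 0.403 RPKM in siNC and at 0.0485, 0.0174 and 0.0996 RPKM in siQk. In tags, these were 216, 749 and 148 against 19, 4 and 35. Every siQk library lay far below every siNC library, with 3.97% of the siNC mean left. The log2 fold change of -4.73 (standard error 0.82, 95% interval -6.69 to -2.78, edgeR FDR 0.00641) was second from the lowest among all genes tested. Mal passed the filter on low counts through its siNC libraries, since its average logCPM in siQk alone was -2.49, below the minimum of 0. Its call and its rank are therefore given as a description. The other 8 genes passed in siQk alone.

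Among the proteins of the membrane face, Mag encodes myelin-associated glycoprotein, a sialic acid-binding adhesion molecule on the layer next to the axon. Mag was at 174, 158 and 55.6 RPKM in siNC and at 16.8, 15.7 and 40.0 RPKM in siQk. The groups did not overlap, and siNC replicate 3 was the siNC library nearest to siQk. Its log2 fold change was -2.58 (standard error 0.56, 95% interval -3.92 to -1.25, edgeR FDR 0.0136), and it was no longer called without siQk replicate 1 (-2.37) or 2 (-2.34).

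Mog (chr17:37010743-37023398, minus strand) encodes myelin oligodendrocyte glycoprotein, an immunoglobulin-domain protein of the outermost layer that appears late in differentiation. It was at 29.6, 40.0 and 5.85 RPKM in siNC and at 12.5, 5.89 and 19.2 RPKM in siQk. The groups overlapped, since siNC replicate 3 was the lowest of the 6 libraries. The log2 fold change was -1.16 (standard error 0.71, 95% interval -2.85 to 0.53, edgeR FDR 0.234), an interval that holds both 0 and the fitted changes of Cnp and Gpm6b. Mog was called under 0 of the 15 alternative settings.

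Opalin (chr19:41061710-41077113, minus strand) encodes a sialylated transmembrane glycoprotein found in OLs of the central nervous system. It was at 180.5, 82.9 and 115 RPKM in siNC and at 64.0, 40.4 and 74.3 RPKM in siQk. The lowest siNC library stood just above the highest siQk library. The fit gave a log2 fold change of -1.24 (standard error 0.35, 95% interval -2.08 to -0.41, edgeR FDR 0.0319), with a P of 0.00982 at the edge of the cutoff. The call was lost without siNC replicate 1 (-0.84) or 3 (-1.33), and without siQk replicate 1 (-1.30), 2 (-1.02) or 3 (-1.44). The files give Opalin an exon length of 912, against 2946 bases of exon in GENCODE M21, and its values under the longer model were not computed.

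Gpm6b encodes M6B, a membrane protein of the proteolipid family that neurons and astrocytes express as well. It was at 172, 207 and 198 RPKM in siNC and at 96.2, 111 and 92.6 RPKM in siQk. It had the tightest groups of the 9 genes apart from Cldn11 in siQk, with a coefficient of variation of 9.46% in siNC and 9.69% in siQk. The log2 fold change was -1.10 (standard error 0.09, 95% interval -1.32 to -0.88, edgeR FDR 0.000793).

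The exact two-sided permutation test of the mean RPKM gave p = 0.1 for each of the 8 genes whose groups did not overlap. This is the smallest p that 3 libraries against 3 allow. Fgfr3, an astrocyte marker that was not called, gave it as well. How many of all genes tested do so was not counted, so the number of 8 has no background beside it. For Mog the exact permutation test gave p = 0.4. In bulk samples, fewer cells of a type and less RNA per cell cannot be told apart. Cnp, Cldn11 and Gpm6b were called lower under all 15 alternative settings. So was Mal, whose call is a description only, since it passed the filter through siNC. Among the 9 intervals, that of Mal lay wholly below those of Cnp, Cldn11, Opalin and Gpm6b, and that of Mobp below those of Cnp, Cldn11 and Gpm6b, while those of Mag and Mbp overlapped with that of Cldn11. Differences in fold change between genes were not tested.

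**Figure D2:**
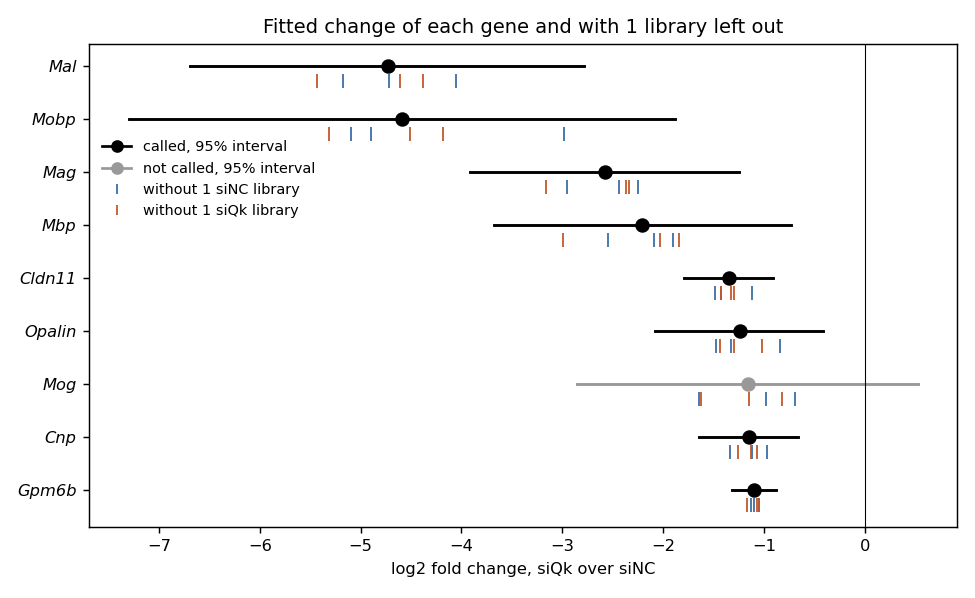
Log2 fold change of siQk over siNC (horizontal axis) for each of the 9 myelin genes, with 95% intervals from edgeR as lines and the 6 values obtained with 1 library left out as ticks. Mal and Mobp lie lowest with wide intervals, and the interval of Mog, in grey, crosses 0.

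In siNC, the order of mean levels from highest to lowest was Cldn11, Cnp, Gpm6b, Mbp, Mag, Opalin, Mog, Mobp and Mal. The ranges of Cldn11 and Cnp overlapped, as did each neighbouring pair from Gpm6b to Opalin and from Mog to Mal. Gaps were thus seen only below Cnp and below Opalin. In siQk the order was Cnp, Cldn11, Gpm6b, Opalin, Mbp, Mag, Mog, Mobp and Mal, so that Opalin stood above Mbp and Mag. There, gaps between neighbours were seen below Cldn11, Gpm6b, Mog and Mobp. Summed over the 9 genes, the level was 2926, 2394 and 1957 RPKM in siNC and 1022, 951 and 1231 RPKM in siQk, and most of each sum was Cldn11 and Cnp. Without these 2 genes the sums were 795, 724 and 463 RPKM in siNC and 222, 191 and 305 RPKM in siQk.

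The order of the replicates was also alike among the genes. In siNC, replicate 3 held the lowest level of 6 of the 9 genes (Mbp, Mobp, Cnp, Mag, Mog and Mal), a place it took for 20.0% of all genes tested and for 29.0% of the 2149 genes called lower. Opalin and Cldn11 were lowest in replicate 2 and Gpm6b in replicate 1. In siQk, 8 of the 9 genes were lowest in replicate 2 and highest in replicate 3, an order shown by 17.8% of all genes tested and by 23.4% of those called lower. Gpm6b had the opposite order, with its highest level in replicate 2 and its lowest in replicate 3. The Qk transcript itself was highest in siQk replicate 2 and lowest in replicate 3. The library that kept the most Qk RNA was thus the one with the lowest levels of 8 myelin transcripts. With 3 libraries, no relation between the levels was tested.

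**Figure D3:**
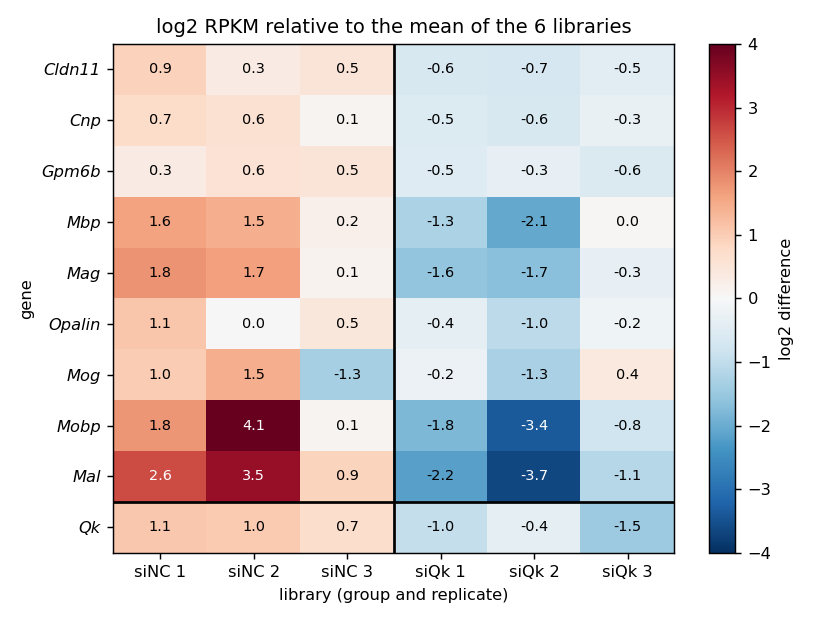
Level of the 9 myelin genes and of Qk (rows) in each library (columns) as the log2 RPKM minus the gene's mean over the 6 libraries, with red above and blue below that mean. Mobp and Mal show the widest span, Gpm6b is even within each group, and siQk replicate 2 is the palest of the siQk libraries for Qk and the darkest for most myelin genes.

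A profile over the 6 libraries was formed as the mean of the 9 genes' log2(RPKM + 0.1), each centred on its own mean. It is an average that none of the 9 followed closely. Their own root mean square differences from it ran from 0.391 (Mbp and Mag) to 1.24 (Mobp). Among 10031 other genes with an average logCPM over 3, Map6d1, which belongs to a family of microtubule-stabilising proteins, was nearest to it, with a root mean square difference of 0.07 on the log2 scale. Map6d1 was at 26.0, 32.4 and 12.5 RPKM in siNC and at 6.09, 4.0 and 8.66 RPKM in siQk. The protease genes Bace2 (0.15) and Adamts4 (0.18) and the sulfotransferase gene Chst8 (0.16) were also among the 5 nearest. Adamts4, known as a gene of mature OLs, was at 62.3, 58.5 and 33.2 RPKM in siNC and at 17.6, 10.9 and 22.7 RPKM in siQk. With a pseudocount of 1, 2 of the 5 nearest genes were shared.

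Other proteins of the myelin sheath were compared next, beside 17.2% called lower and 13.8% called higher over all genes tested. Of 20 listed, 19 were tested, 11 were called lower, 0 were called higher and 8 were not called, with a median log2 fold change of -1.42. The lowest among the called were Tppp, which bundles microtubules in OLs (log2 fold change -3.46), Ndrg1 (-2.72) and Car2, a carbonic anhydrase of OLs (-2.29). The smallest called changes were those of the tetraspanin gene Cd9 (-0.74), the gap junction gene Gjc3 (-0.79) and Pllp, which encodes plasmolipin (-1.20). The deacetylase gene Sirt2, whose protein is abundant in myelin, had the highest level of the list, at 2726, 1835 and 1682 RPKM in siNC and at 603, 573 and 775 RPKM in siQk. Of 6 enzymes of myelin lipids, 5 were tested, 3 were called lower and 0 higher. They were Ugt8a, which makes galactosylceramide (log2 fold change -0.80), Lass2, now named Cers2, a ceramide synthase of very long chains (-0.65), and the fatty acid elongase gene Elovl1 (-0.45). The call of Ugt8a, which also had the highest level of the list, was lost without siQk replicate 1 or 2.

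Regulators of myelin genes were called in both directions, as were all genes tested, of which 17.2% were called lower and 13.8% higher. The counts of the lists were not tested against these shares. Of 13 activators of myelin genes, all tested, 6 were called higher, 2 lower and 5 were not called, with a median log2 fold change of 0.19. The number called higher was 3 without siNC replicate 2 and 3 without siQk replicate 1, where Olig1, Smarca4 and Chd7 were no longer called. Nkx2-2 (0.90), Olig2 (0.69) and Sox8 (0.67), transcription factors of the OL lineage, had the highest changes among the called. Olig1 had the highest level of the list, at 279.5, 257 and 265 RPKM in siNC and at 398, 439.9 and 369 RPKM in siQk. Nkx6-2 (-0.71) and Zfp191, now named Zfp24 (-0.48), were the 2 called lower, and the call of Nkx6-2 was lost with library size only, with upper quartile factors and without any single library except siQk replicate 3. Myrf, the factor that switches on myelin genes, is listed as Gm98 and was at 93.2, 85.6 and 59.7 RPKM in siNC and at 56.0, 48.8 and 81.1 RPKM in siQk. Its groups overlapped. Among the siQk libraries it was highest in replicate 3 and lowest in replicate 2, an order shown by 17.8% of all genes tested. Its log2 fold change of -0.52 was not called (95% interval -1.12 to 0.09, edgeR FDR 0.148). Sox10, its partner, was at 141 to 174 RPKM in siNC and at 168 to 184 RPKM in siQk.

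Of 7 inhibitors of myelin genes, 2 were called higher and 0 lower by edgeR, while DESeq2 called 2 higher and 2 lower. Hes5, a Notch target that holds cells back from differentiation, was at 22.0, 27.2 and 19.7 RPKM in siNC and at 94.7, 91.9 and 98.6 RPKM in siQk (log2 fold change 1.90). Lingo1, a receptor component that restrains myelination, was the other (0.64). Id2, the most abundant of the list, was at 68.8 to 120.2 RPKM in siNC and at 96.8 to 133 RPKM in siQk and was not called. Of 7 genes listed for the carriage, anchoring or control of Mbp RNA, 1 was called higher and 3 lower, beside 13.8% and 17.2% of all genes tested. Hnrnpab rose by 0.36 on the log2 scale, while Kif1b, a kinesin (-0.46), Hnrnpf (-0.43) and Ckap5 (-0.27) were lower. With library size only, 0 of these 3 were called lower. The call of Hnrnpab was lost without siNC replicate 2 or 3 and without siQk replicate 1 or 2, and without siQk replicate 2 only Hnrnpf stayed among those called lower. Hnrnpa2b1, the most abundant carrier, was at 308 to 331 RPKM in siNC and at 385 to 423 RPKM in siQk and was not called. The fitted changes of all 9 myelin genes kept their sign with library size only, where the median of all genes was 0.16 and that of the 9 was -1.19.

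**Figure D4:**
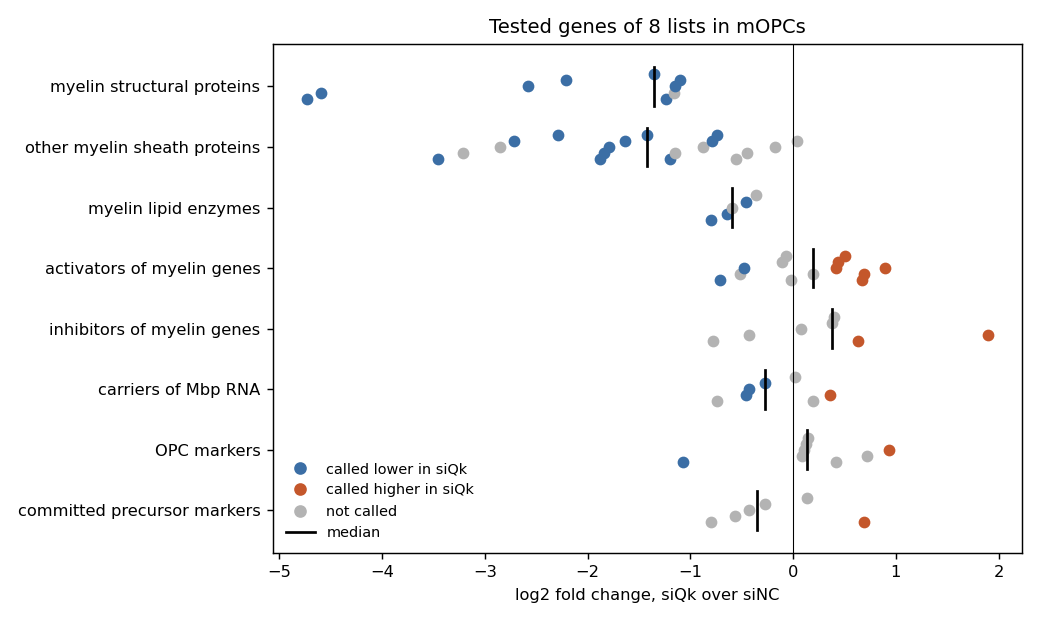
Log2 fold change of siQk over siNC (horizontal axis) for the tested genes of 8 lists, with genes called lower in blue, called higher in orange and not called in grey, and the list's median as a bar. The myelin structural and other sheath proteins have medians of -1.35 and -1.42, and the activators and inhibitors of myelin genes have medians of 0.19 and 0.38.

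Marker genes were used to check the cell type of the cultures. Over all genes tested, 17.2% were called lower and 13.8% higher. The counts of the marker lists were not tested against these shares. Of 8 OPC markers, 1 was called higher (the proteoglycan gene Cspg4, log2 fold change 0.93), 1 lower (Lhfpl3, -1.07) and 6 were not called. Their summed level was 410.4 to 435 RPKM in siNC and 338 to 436 RPKM in siQk. Pdgfra, the receptor that defines OPCs, was at 71.1 to 94.1 RPKM in siNC and at 76.3 to 118 RPKM in siQk. In siNC, the mean levels of Cldn11 (890.4 RPKM), Cnp (875), Gpm6b (193), Mbp (176), Mag (129) and Opalin (126) lay above that of Pdgfra (82). Those of Mog (25.1), Mobp (10.6) and Mal (1.39) lay below it. Of 6 markers of committed precursors, 1 was called higher (Bmp4, 0.69) and 5 were not called. Bmp4 was no longer called without siNC replicate 3. The summed level of the list was 304 to 463 RPKM in siNC and 276 to 403 RPKM in siQk. Gpr17, which marks cells between OPC and OL, was at 96.4 to 130.1 RPKM in siNC and at 114 to 167 RPKM in siQk. Of the 6 Schwann cell markers, 4 were tested and 2 were called lower, among them Cdh19, the most abundant of the list.

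Of 9 astrocyte markers, 7 were tested, 4 were called lower, 0 were called higher and 3 were not called, with a summed level of 183 to 263 RPKM in siNC and 136 to 157 RPKM in siQk. The 4 were Gfap (log2 fold change -2.95), Aldh1l1 (-2.21), and the glutamate transporter genes Slc1a3 (-1.38) and Slc1a2 (-1.06). Slc1a3 was at 22.0 to 27.4 RPKM in siNC and at 9.87 to 11.5 RPKM in siQk. Aldoc, the most abundant of the list, was at 82.6 to 104 RPKM in siNC and at 100.5 to 118 RPKM in siQk, and neither Aldoc (0.03), Fgfr3 (0.21) nor Aqp4 was called. The remaining markers, Gja1 and Gjb6, did not exceed 0.013 RPKM. The 10 fibroblast and vascular markers summed to at most 0.635 RPKM, with Cldn5 at 0 in every library. Of 8 microglia markers, C1qa and C1qb were at 0 in every library. The neuron markers had a summed level of 227 to 333 RPKM in siNC and 242 to 269.9 RPKM in siQk. Of 7 tested, 2 were called higher, Snap25 (log2 fold change 2.64) and Nefl (1.61), and the median was 0.865. Gap43, the most abundant, was not called, and Stmn2 did not exceed 0.0439 RPKM. The part that the make-up of the cultures had in the levels of the myelin genes was not tested.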

How the data were processed

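RNA of mOPCs was measured in 6 libraries, 3 siNC and 3 siQk, by poly-A selected paired-end sequencing. OLego (alignment, mm10) and Quantas (gene quantification) were the authors' tools, with versions not given in the sources used here. They deposited an estimated count (tag number) per gene and library, without normalization, and an RPKM value, which recomputation showed to be that count divided by exon length and library total.

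Counts were rounded. Genes with an average logCPM over 0 were tested with edgeR 4.0.16 (R 4.3.3), TMM factors and group as the only term. Intervals use the test's t distribution. Alternatives were DESeq2 1.42.0, other factors, other filters, another cutoff, Rn45s left out, a replicate block and each library left out. No pair of replicates differed by as little as sampling noise. The chi-square per degree of freedom ran from 36.3 to 74 for siQk pairs and from 185 to 326 for siNC pairs. The labels call the replicates biological.

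The 9 genes, the lists and the tests were chosen with earlier results of these data known. Named are the 9 genes and Qk, of each list the called genes with the 3 lowest and 3 highest changes and the highest level, and the 5 genes nearest in profile, of which 1 is not reported here, like some marker and sheath genes. Older symbols were matched through Entrez identifiers. Sequences came from GENCODE M21 and from RefSeq promoters. Stmn2, Gja1, Gjb6, Cldn5, C1qa and C1qb were singled out after their values were seen.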

Additional observations from a re-analysis of the deposited data

How the results depend on the processing

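The sign of the fitted change of all 9 myelin genes and of Qk was kept under the 15 alternative settings. The number of the 9 called lower was 8, and from 4 to 7 with 1 library left out, the lowest without siQk replicate 1 or 2. The calls of Mbp, Mobp, Mag and Opalin were lost with 1 library left out, for each gene with more than 1 choice of library. That of Opalin was also lost with upper quartile factors (log2 fold change -1.19). Libraries of the same replicate number did not deviate together (correlations of -0.053, -0.152 and -0.34), so that the numbers were not taken as pairs. Under a replicate block, 5 of the 9 were called lower, and Mbp (-2.41), Mobp (-3.91) and Mag (-2.62) were not. Of the 5 pathway lists together, 19 genes were called lower and 9 higher. Under a stricter cutoff (FDR below 0.05, change of 1 or more on the log2 scale), these were 10 and 1, because it adds a minimum size. With 1 library left out, they ranged from 14 to 20 and from 5 (siQk replicate 1 left out) to 8. Over all genes, 1365 were lower with library size only and 2989 were higher, against 2149 and 1730. Their lower share of calls was then 31.4%, and 44.4% with upper quartile factors, against 55.4%. With the stricter cutoff, 620 genes were lower and 326 higher, and the number higher was 1008 without siQk replicate 1 and 1104 without siQk replicate 2. The causes of these shifts were not tested. Among mean levels, Mobp in siNC went from 10.6 to 3.36 RPKM without siNC replicate 2 and Mal from 1.39 to 0.87 RPKM. Without siQk replicate 3, the siQk means of Mbp, Mobp and Mal went from 42.7 to 25.0 RPKM, from 0.479 to 0.289 RPKM and from 0.0552 to 0.033 RPKM.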

Other observations

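Among the genes used as markers of other cells, P2ry12, a purinergic receptor often taken as a microglia marker, was at 0.669, 3.20 and 1.19 RPKM in siNC and at 0.152, 0.186 and 0.287 RPKM in siQk, while the other 7 microglia markers did not pass the filter on low counts. Pmp2, a fatty acid-binding protein of peripheral myelin, was at 2.10, 1.33 and 1.47 RPKM in siNC and at 0.249, 0.452 and 0.406 RPKM in siQk. Both passed the filter on low counts through their siNC libraries, and were below it in siQk alone, so that their calls as lower (edgeR FDR 0.00886 and 0.00297) are given as a description. Ermn, which encodes the myelin cytoskeletal protein ermin and appears late in OLs, was at 0.293, 3.61 and 0.151 RPKM in siNC and at 0.143, 0.130 and 0.341 RPKM in siQk, with siNC replicate 2 standing apart as it did for Mobp, and was not called. Pmp2 and Ermn were chosen after their values were seen.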
